A study of Mus musculus with 7 samples.

Results

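The nuclear-encoded subunits of the mitochondrial respiratory chain and ATP synthase were followed in RNA sequenced from Pdgfra-low CD81+ cells of the mouse intestinal mesenchyme. The genes were taken by name from the table of expression values: the numbered Nduf genes, the Cox4 to Cox8 families, all Uqcr and Atp5 genes and the 4 Sdh genes, which gave 85 genes of 24908 symbols; 84 of them are described. Both knockout groups came from mice in which Apc, the scaffold of the complex that degrades beta-catenin, had been inactivated in epithelial cells with Apcflox/flox and Villin-CreERT2, and cells were sorted 4 days later (2 libraries) or 6 days later (2 libraries). They were set against 3 wildtype libraries. The Villin promoter is active in the gut epithelium, so the sorted mesenchymal cells are neighbours of the targeted cells and not themselves the target. Age, strain, sex, the genotype of the wildtype mice beyond that word and any tamoxifen given to them are not stated in the labels, nor is it stated whether libraries of a group came from separate animals; the spread behind each p-value may therefore be technical. Names of the data columns give a day to the controls as well: 1 control goes with both day 4 knockout libraries, called the day 4 set here, and 2 controls go with the day 6 knockout libraries, called the day 6 set. The second day 6 knockout column names no day and was placed there by elimination.

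Oxidative phosphorylation passes electrons from NADH through complex I and from succinate through complex II to ubiquinone, then through complex III and cytochrome c to complex IV, where oxygen is reduced. Complexes I, III and IV pump protons across the inner mitochondrial membrane, and complex V, the ATP synthase, uses the gradient to make ATP. Most subunits are encoded in the nucleus, many as short proteins imported into the mitochondrion, and a smaller core set is encoded in mitochondrial DNA; the mitochondrially encoded subunits were not analysed here.

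Expression is given in FPKM, a measure of fragments corrected for transcript length and library size, so that its values allow levels to be compared between genes. Column totals ran from 351323 to 427369 FPKM, and 10914 to 11342 genes reached 1 FPKM in a library. Read counts were not used here, so sequencing depth is unknown and no counting interval can be given. Apc stood at 2.22 to 3.29 FPKM in all 7 libraries; since the targeted cells are epithelial, this level is no check of the labels. Markers of the sorted population were present in every library: Pdgfra had 76.5 and 134 FPKM in day 4 knockout cells, 111 and 89.2 FPKM in day 6 knockout cells, and 61.3, 54.3 and 59.9 FPKM in controls, and Cd81 was lowest, at 32.4 FPKM, in day 4 knockout replicate 2. Of the 6 markers of this population only Pdgfra had a positive log2 change at day 4. The other 5 were negative, and the median was -0.90, against -0.06 over all genes. Passing the test were 2 of the 6, Cd34 with a log2 change of -1.33 and Wnt2b with -1.31. Both were lower, where 0.622% of all genes passed as lower. With the set as a term in the model neither passed, and the median was -0.77. Markers of other cell types varied between libraries. Summed levels of 9 macrophage and dendritic cell genes were 829 and 32.6 FPKM in day 4 knockout cells, 523 and 451 FPKM in day 6 knockout cells, and 406, 623 and 368 FPKM in controls, so day 4 knockout replicate 2 stood apart. Those of 7 B and plasma cell genes ran from 150 FPKM in day 4 knockout replicate 2 to 2724 FPKM in day 4 knockout replicate 1. The 10 epithelial genes summed to between 1.90 and 23.9 FPKM and the 10 blood endothelial genes to between 37.9 and 95.7 FPKM. By set, the endothelial sums were 66.7, 95.7 and 71.3 FPKM in the day 4 set and 37.9, 66.2, 49.6 and 39.5 FPKM in the day 6 set. These did not overlap. The sums of the 6 markers of the sorted population were also apart by set, but lower in the day 4 set. In the day 4 set they were 562 and 478 FPKM in knockout cells and 851 FPKM in the control. In the day 6 set they were 1122 and 864 FPKM in knockout cells and 956 and 940 FPKM in controls. The macrophage, B cell and epithelial sums overlapped between the sets. In sorted bulk cells, fewer cells of a type and less RNA per cell cannot be told apart.

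The summed level of the subunits was similar in all groups. It was 4299 and 4658 FPKM in day 4 knockout cells, 4089 and 4058 FPKM in day 6 knockout cells, and 4235, 4269 and 4343 FPKM in controls. As a share of each library's total this was 1.14% and 1.25% at day 4, 0.983% and 1.03% at day 6, and 1.21%, 1.03% and 1.02% in controls. The 3 highest shares were those of the 3 day 4 set libraries, control included. Complex IV and complex V sums moved least between libraries, with the highest library 1.09 and 1.13 times the lowest, and complex III moved most, at 1.45 times, while complex I lay between, at 1.22 times, and complex II at 1.26 times.

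Complex V was the most abundant of the larger complexes by the median of its genes, 58.1 FPKM over 17 genes, against 28.8 FPKM over the 35 genes of complex I, 37.1 FPKM over the 8 of complex III and 39.6 FPKM over the 20 of complex IV. The 4 genes of complex II had a median of 60.6 FPKM. As many as 10 genes averaged over 100 FPKM, 7 of them in complex V and 3 in complex IV. Atp5b, the catalytic beta subunit of ATP synthase, was the highest, with 232 and 312 FPKM in day 4 knockout cells, 259 and 240 FPKM in day 6 knockout cells, and 231, 231 and 230 FPKM in controls. All 4 knockout libraries lay above all 3 controls, the lowest by less than 1 FPKM. Cox8a, a small subunit of complex IV, was the highest there, with 204 and 167 FPKM at day 4, 192 and 213 FPKM at day 6, and 216, 243 and 244 FPKM in controls, and every knockout library lay below every control. Neither gene passed the test at either day (Atp5b log2 change 0.22 ± 0.19 at day 4, Cox8a -0.34 ± 0.18, SE). The highest genes of the other complexes averaged 77.6 FPKM (Ndufa7, an accessory subunit of complex I), 62.9 FPKM (Sdhb, the iron-sulfur subunit of succinate dehydrogenase) and 86.8 FPKM (Uqcrh, the hinge protein of complex III). At the low end, 11 genes averaged under 10 FPKM, among them Ndufs5 of complex I, between 7.04e-05 and 3.20 FPKM, and Uqcrq of complex III, between 1.94 and 11.7 FPKM. The Ndufs5 transcript has a nearly identical annotated pseudogene, and how reads were shared between them is not stated.

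**Figure D1:**
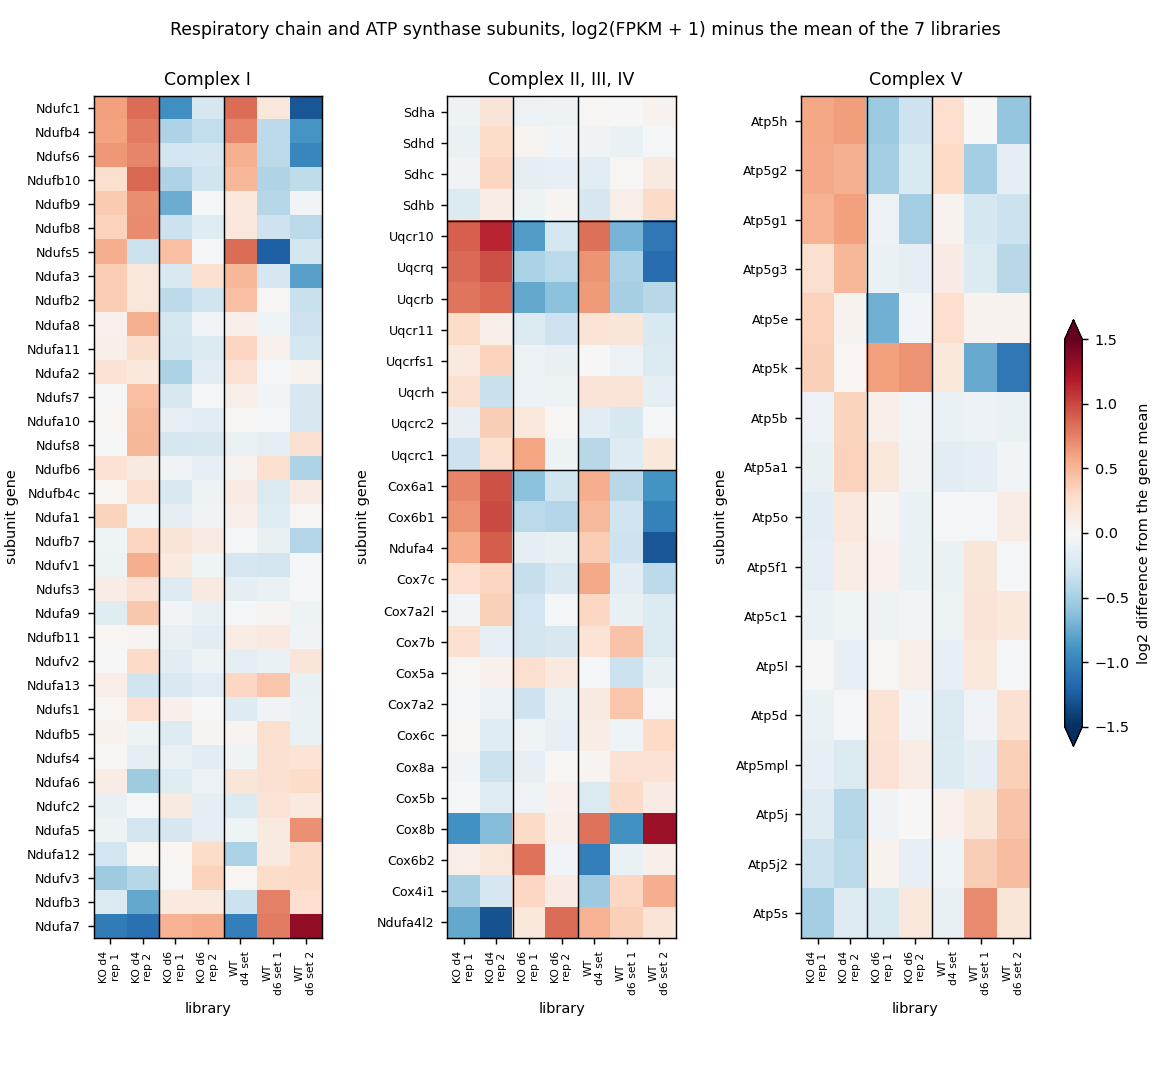
Each of the 79 tested subunit genes (rows, by complex) in each of the 7 libraries (columns, knockout libraries to the left of controls), as log2(FPKM + 1) minus that gene's mean over the 7 libraries; red is above and blue below the mean. The upper rows of complexes I, III and IV are red in the day 4 knockout libraries and in the day 4 set control and blue in most day 6 set libraries.

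Several complex IV subunits exist as tissue isoforms, and the sorted cells expressed the widespread form of nearly every pair. Cox4i1 ran from 122 to 262 FPKM, while Cox4i2, the isoform known from lung and hypoxic cells, did not exceed 1.01 FPKM. The heart and muscle isoforms Cox6a2 and Cox7a1 stayed under 1 FPKM in every library, Cox8b averaged 1.19 FPKM, and Cox7b2 and Cox8c were listed at 0 throughout. The 5 genes Cox4i2, Cox6a2, Cox7a1, Cox7b2 and Cox8c missed the minimum for testing, 1 FPKM in 2 libraries, and the other 79 genes were tested. Cox6b2, known as the testis isoform of the subunit that joins complex IV dimers, was the exception. It had 45.0 and 47.3 FPKM in day 4 knockout cells, 74.3 and 40.7 FPKM in day 6 knockout cells, and 20.0, 39.0 and 44.1 FPKM in controls. Its partner Cox6b1 had 68.4 and 85.2 FPKM at day 4, 31.8 and 31.0 FPKM at day 6, and 59.7, 34.4 and 20.4 FPKM in controls. Cox6b2 thus made up 39.7% and 35.7% of the summed pair in day 4 knockout cells, 70.0% and 56.7% in day 6 knockout cells, and 25.1%, 53.1% and 68.3% in controls, the 25.1% being the day 4 set control. By set, the share was under 40% in all 3 day 4 set libraries and over 50% in all 4 day 6 set libraries. The 3 genes for the c subunit of the ATP synthase rotor, which encode the same mature protein, summed to 188 and 211 FPKM at day 4, 129 and 123 FPKM at day 6, and 161, 120 and 114 FPKM in controls. Atp5g3 supplied between 56.2% and 65.4% of that sum in every library.

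Promoter sequence is shown for 4 genes described in the comparisons, the most changed of complex I (Ndufa7) and complex III (Uqcr10) at day 4 and of complex V (Atp5k) and complex IV (Cox6b2) at day 6. Each line gives the 150 bases that end just before the transcription start, 5′ to 3′ on the gene's strand, from RefSeq on GRCm38.p6. In this build they are chr5:108434400-108434549 (minus strand) for Atp5k, chr17:33824422-33824571 (plus strand) for Ndufa7, chr11:4704345-4704494 (minus strand) for Uqcr10 and chr7:4753095-4753244 (minus strand) for Cox6b2. Capitals mark the NRF1 motif in Atp5k (GCGCA, any base, then GCGC), which begins 50 bases before the start, and the YY1 motif ATGGCGGC in Ndufa7, which begins 98 bases before it; none of the 4 motifs searched is present in the other two stretches.
Atp5k: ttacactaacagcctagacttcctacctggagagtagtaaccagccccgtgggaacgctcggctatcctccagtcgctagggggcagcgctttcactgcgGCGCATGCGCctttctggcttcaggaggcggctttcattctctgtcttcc
Ndufa7: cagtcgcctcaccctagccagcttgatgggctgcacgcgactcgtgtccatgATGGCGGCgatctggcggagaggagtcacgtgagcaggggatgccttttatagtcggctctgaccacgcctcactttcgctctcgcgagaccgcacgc
Uqcr10: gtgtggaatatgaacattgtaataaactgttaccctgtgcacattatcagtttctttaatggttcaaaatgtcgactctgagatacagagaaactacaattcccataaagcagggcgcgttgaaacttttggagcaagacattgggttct
Cox6b2: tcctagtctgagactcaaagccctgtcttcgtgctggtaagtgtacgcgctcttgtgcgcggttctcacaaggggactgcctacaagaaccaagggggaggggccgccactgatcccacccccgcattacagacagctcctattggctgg
NRF1, YY1, the ETS factor GABP and the estrogen-related receptors are transcription factors known to act on respiratory chain genes. Windows from 250 bases before to 50 bases after the start were matched for 66 of the 84 genes and searched on both strands. The NRF1 motif was in 24.2% of them (16 genes), against 4.82% of 27025 promoters in the table. The ETS core CCGGAAG was in 22.7% (15 genes), against 9.14%. YY1 matches were in 9.09% (6 genes), against 2.38%, and the receptor site AAGGTCA in 12.1% (8 genes), against 4.65%. At least 1 motif was present in 33 of the 66, or 50%, against 18.9% of all promoters. None of the motifs contains another, a window can hold several, and a match describes letters only.

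The first comparison asked how the subunit genes of the neighbouring mesenchymal cells stood 4 days after epithelial Apc loss. None of the 79 tested genes passed in either direction (limma, adjusted p under 0.05 over all genes); 1.02% of the 11735 genes tested passed this threshold, 0.401% higher and 0.622% lower. The subunits leaned upward: 49 of 79 had a positive log2 change, against 43.1% of all genes, and their median was 0.14, against -0.06 over all genes. Before adjustment, 20 subunits had p under 0.05, 14 higher and 6 lower, in a contrast where 18.6% of all genes did. Of all 11735 genes, 728 were higher and 1449 lower at that threshold. By complex the median log2 change was 0.23 for complex I, 0.09 for complex II, 0.31 for complex III, -0.08 for complex IV and -0.02 for complex V. With each knockout set only against the controls of its own set, again none passed and the median over all subunits was 0.07. Within the set the medians by complex were 0.04, 0.17, 0.22, -0.15 and 0.07 from complex I to complex V, so that of complex V turned positive. Without the day 4 set control, 10 subunits passed, 9 higher and Ndufa7 lower, among 474 genes in all. Without day 4 knockout replicate 2, the library with the lowest summed macrophage markers, the median was 0.02, against -0.14 over all genes; the part of cell makeup in these values was not tested.

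**Figure D2:**
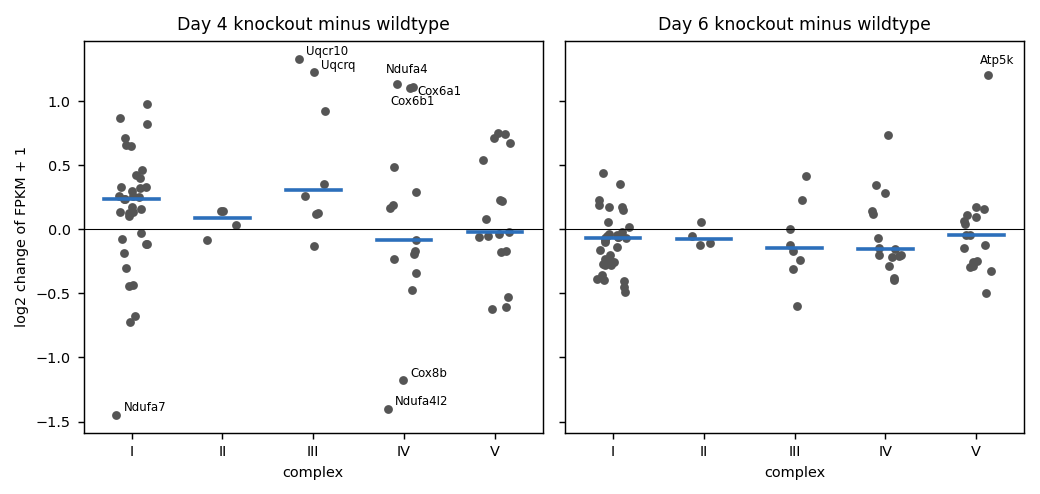
Log2 change of FPKM + 1 for each tested subunit gene (points) by complex, day 4 knockout minus wildtype on the left and day 6 knockout minus wildtype on the right; blue bars are complex medians, and genes with a change beyond 1 in either direction are named. At day 4 Uqcr10 at 1.33 is the highest point and Ndufa7 at -1.45 the lowest, and at day 6 the points sit closer to 0 apart from Atp5k at 1.20.

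**Figure D3:**
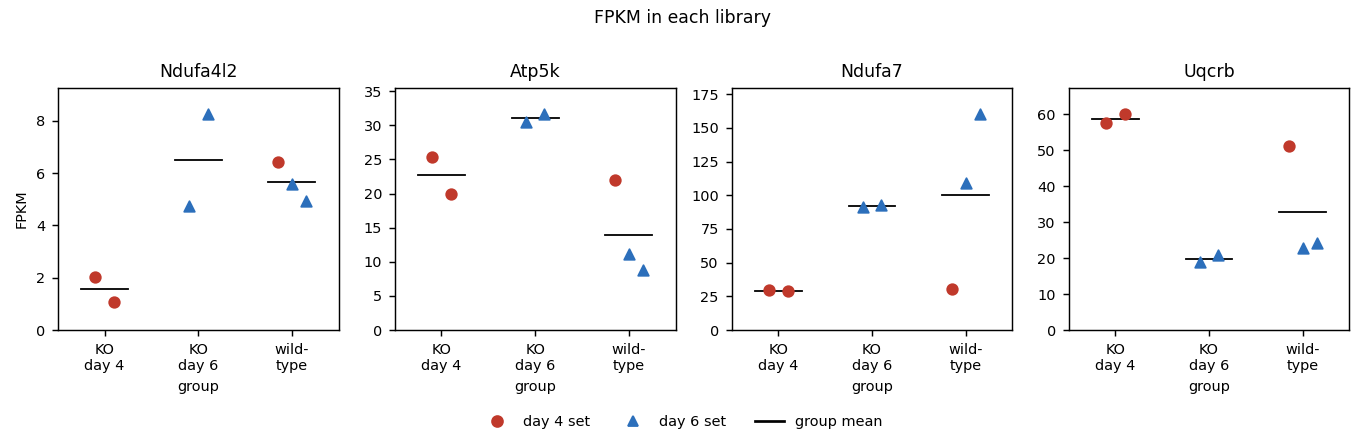
FPKM in each library for Ndufa4l2, Atp5k, Ndufa7 and Uqcrb, by group; circles are libraries of the day 4 set, triangles those of the day 6 set, and lines are group means. For Ndufa7 and Uqcrb the control of the day 4 set, at 30.5 and 51.3 FPKM, lies near both day 4 knockout libraries and far from the other controls.

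In complex I, 24 of 35 log2 changes at day 4 were positive and none passed. Ndufv3, an accessory subunit of the NADH-binding arm, had 40.3 and 43.4 FPKM in day 4 knockout cells, 59.2 and 74.6 FPKM in day 6 knockout cells, and 60.0, 71.2 and 71.7 FPKM in controls. Both day 4 libraries lay below all other libraries, with a log2 change of -0.68 ± 0.17 and an adjusted p of 0.110. Ndufa7 had the largest negative change of the complex at day 4, -1.45 ± 0.59 with an adjusted p of 0.248. Its levels were 29.9 and 28.6 FPKM at day 4, 91.4 and 93.1 FPKM at day 6, and 30.5, 109 and 160 FPKM in controls. The 30.5 FPKM is the day 4 set control, so the day 4 knockout cells did not stand apart from the control of their own set, and the change within the set was -0.06. Over all complexes, 3 subunits (Ndufs1, Cox5a and Atp5b) lay above all controls in all 4 knockout libraries, or 3.8% of those tested, against 5.32% of all genes. Below all controls were Ndufa6, Ndufa5, Cox8a and Atp5j, or 5.06%, against 6.58% of all genes.

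Complex II belongs to both the citric acid cycle and the chain. Its genes moved between 1.22 times (Sdha) and 1.46 times (Sdhb), highest library over lowest. The sum moved 1.26 times, more than in every other complex except complex III. Sdha, the flavoprotein, ran from 58.0 to 70.6 FPKM over the 7 libraries. Sdhb had 54.0 and 67.7 FPKM at day 4, 59.2 and 64.5 FPKM at day 6, and 52.3, 66.4 and 76.2 FPKM in controls. The membrane anchors Sdhc and Sdhd ran from 38.6 to 54.8 FPKM and from 55.1 to 71.6 FPKM. Knockout and control libraries overlapped for all 4 genes, and their log2 changes at day 4 lay between -0.09 ± 0.20 (Sdhb) and 0.14 ± 0.16 (Sdhd).

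In complex III, 7 of 8 log2 changes at day 4 were positive and none passed. Uqcr10, a small subunit, had 60.3 and 71.4 FPKM in day 4 knockout cells, 17.4 and 26.5 FPKM in day 6 knockout cells, and 57.2, 19.4 and 14.7 FPKM in controls. Its log2 change of 1.33 ± 0.50 (adjusted p 0.223) was the largest positive one of all subunits, and it was 0.20 within the set, since the day 4 set control was nearly as high as the knockout cells. The core proteins Uqcrc1 and Uqcrc2 and the Rieske iron-sulfur protein Uqcrfs1 moved less. Uqcrc1 ran from 50.4 to 103 FPKM, Uqcrc2 from 23.8 to 36.9 FPKM and Uqcrfs1 from 27.1 to 40.6 FPKM.

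Ndufa4l2 came next to the threshold among the complex IV genes. It is a paralogue of Ndufa4, a protein found with complex IV, and is known as a target of the hypoxia-inducible factor HIF-1. Levels were 2.03 and 1.09 FPKM in day 4 knockout cells, 4.76 and 8.27 FPKM in day 6 knockout cells, and 6.44, 5.60 and 4.93 FPKM in controls. Both day 4 knockout libraries lay below all other libraries. The log2 change at day 4 was -1.40 ± 0.26 with an adjusted p of 0.0547. Within the set it was -1.57 ± 0.36, which did not pass and rests on the day 4 set control alone. Without day 4 knockout replicate 2 the log2 change against all controls was -1.13. The limma adjusted p was 0.0526 with a pseudocount of 0.1, 0.153 without the filter and 0.154 without the first day 6 set control. On the log2(FPKM + 1) scale such low levels give a smaller change than the FPKM themselves do. Ndufa4 had 52.7 and 67.2 FPKM at day 4, 32.1 and 32.8 FPKM at day 6, and 46.3, 28.5 and 14.04 FPKM in controls, so Ndufa4l2 made up 3.70% and 1.59% of the pair at day 4, 12.9% and 20.1% at day 6, and 12.2%, 16.4% and 26.0% in controls. The gene shares 32 exonic bases with Shmt2 on the opposite strand. In a list of HIF targets, 6 of 15 tested genes had a positive change at day 4 and 9 a negative one, where 43.1% of all genes were positive, and none passed; within the set 10 of 15 were positive.

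For complex V, 8 of 17 changes at day 4 were positive and 9 negative. Atp5g1, 1 of the 3 c subunit genes, had 42.4 and 45.2 FPKM in day 4 knockout cells, 27.5 and 20.1 FPKM in day 6 knockout cells, and 30.4, 24.1 and 23.3 FPKM in controls. The day 4 knockout libraries lay above all others, with a log2 change of 0.74 ± 0.19 and an adjusted p of 0.114. The day 4 set control, at 30.4 FPKM, also lay above all day 6 set libraries, and the change within the set was 0.51 ± 0.24. The Atp5g1 transcript has a nearly identical annotated pseudogene. Atp5k, the e subunit of the membrane part, is described with day 6.

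At day 6 no subunit passed in either direction (limma), in a comparison where 0.0426% of all genes did. Before adjustment 2 subunits had p under 0.05, 1 higher and 1 lower, against 7.26% of all genes. Of all 11735 genes, 445 were higher and 407 lower at that threshold. The median log2 change was -0.10, against -0.01 over all genes, and 25 of 79 changes were positive, against 49.1% of all genes. Medians were -0.07 for complex I, -0.08 for complex II, -0.15 for complex III, -0.16 for complex IV and -0.05 for complex V, and -0.04 over all subunits within the set. By complex the within-set medians were -0.05, -0.15, 0.14, -0.0044 and -0.04 from complex I to complex V, so that of complex III turned positive. Both days were set against the same 3 controls, which ties their errors together.

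Atp5k had the largest change at day 6. Levels were 25.4 and 19.9 FPKM in day 4 knockout cells, 30.5 and 31.7 FPKM in day 6 knockout cells, and 21.9, 11.1 and 8.74 FPKM in controls. The day 6 knockout libraries lay above all others, the 2 day 6 set controls below all others, and the day 4 set control beside the day 4 knockout libraries. The log2 change at day 6 was 1.20 ± 0.34 with an adjusted p of 0.574 against all 3 controls, and 1.56 ± 0.20 with an adjusted p of 0.156 within the set. At day 4 it was 0.75 ± 0.34 with an adjusted p of 0.282, and 0.03 within the set. An annotated pseudogene is nearly identical to the Atp5k transcript, and how reads were shared between them is not stated. Cox6b2 had a log2 change of 0.74 ± 0.36 at day 6 with an adjusted p of 0.727. It was 0.40 within the set, 0.31 without day 6 knockout replicate 1 and 1.16 without day 6 knockout replicate 2. Ndufa2, an accessory subunit of complex I, had 83.6 and 79.9 FPKM at day 4, 51.5 and 64.1 FPKM at day 6, and 83.5, 71.1 and 74.5 FPKM in controls. Its day 6 change of -0.40 ± 0.17 (adjusted p 0.680) was the 1 negative change with an unadjusted p under 0.05. Cox5a, a subunit of complex IV that carries no heme, came next by p, at 0.35 ± 0.16 with an adjusted p of 0.701. It had 62.8 and 64.7 FPKM at day 4, 73.2 and 68.7 FPKM at day 6, and 60.5, 49.4 and 57.5 FPKM in controls, so both day 6 knockout libraries were the highest. Ndufc1, a small subunit of complex I, had the largest change of that complex at day 6, -0.49 ± 0.55 with an adjusted p of 0.909. Its levels were 20.3 and 23.9 FPKM at day 4, 6.35 and 10.7 FPKM at day 6, and 23.8, 14.6 and 4.70 FPKM in controls; the groups overlapped, and the change within the set was -0.03.

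With both days averaged, no subunit passed (limma), where 0.162% of all genes did. Before adjustment 5 subunits had p under 0.05, 1 higher and 4 lower, against 13.8% of all genes. Of all 11735 genes, 618 were higher and 1007 lower at that threshold. The median log2 change was 0.02 (-0.011 without day 4 knockout replicate 2 and -0.0012 without the first day 6 set control), against -0.03 over all genes, and 44 changes were positive, against 44.7% of all genes. Atp5k was the higher one, with 0.98 ± 0.28 and an adjusted p of 0.189. Ndufa4l2 was the lower one with the smallest p, -0.63 ± 0.22 with an adjusted p of 0.268. Atp5j2, the f subunit of the membrane part of ATP synthase, followed at -0.46 ± 0.17 with an adjusted p of 0.288. It had 89.1 and 84.0 FPKM in day 4 knockout cells, 116 and 103 FPKM in day 6 knockout cells, and 107, 145 and 155 FPKM in controls. The day 4 libraries lay below every control, while 1 of the day 6 libraries lay above the lowest control. Without the day 4 set control 2 subunits passed, Atp5k and Ndufa7, among 80 genes in all.

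Day 6 knockout cells were also set against day 4 knockout cells, a comparison in which day and set cannot be told apart. No gene of the whole table passed (limma, 0% of 11735 genes). Without the day 4 set control, which also enters the estimate of spread, 83 genes passed, Ndufa7 and Uqcrb among them. Of the subunits 25 had a positive and 54 a negative log2 change, where 56.5% of all genes were positive, and the median was -0.15, against 0.05 over all genes. Before adjustment 18 subunits had p under 0.05, 3 higher and 15 lower, against 11.5% of all genes. Of all 11735 genes, 1001 were higher and 344 lower at that threshold. The smallest p values belonged to Ndufa4l2 (1.54 ± 0.29, adjusted p 0.257), Uqcrb (-1.52 ± 0.36, adjusted p 0.271) and Atp5g1 (-0.87 ± 0.21, adjusted p 0.278). Uqcrb, which encodes the ubiquinone-binding protein of complex III, had 57.5 and 60.1 FPKM in day 4 knockout cells, 18.8 and 20.9 FPKM in day 6 knockout cells, and 51.3, 22.8 and 24.2 FPKM in controls. With the difference between the controls of the sets taken off, the change was -0.43 for Uqcrb, -0.52 for Atp5g1 and 1.79 for Ndufa4l2.

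Many subunit genes separated the libraries by set. In 24 of 79 subunits (30.4%) all 3 day 4 set libraries, the wildtype one included, lay above all 4 day 6 set libraries, whereas 3.78% of all tested genes did so. In 4 subunits (5.06%: Ndufa7, Ndufa12, Ndufb3 and Cox4i1) all day 4 set libraries lay below, against 9.65% of all genes. Together 28 of 79 (35.4%) were apart by set, against 13.4%. The split was found in 15 of 35 genes of complex I, 4 of 8 of complex III, 5 of 15 of complex IV and 4 of 17 of complex V, and in none of the 4 of complex II. Since 2 of the 3 day 4 set libraries are day 4 knockouts, these counts hold genotype as well as set. Between the controls alone (1 library against 2), the single library has no spread of its own and is assumed to vary like the others; on that assumption limma called 1 subunit, Ndufa7, of 40 genes in all (0.341%), and 21 subunits had an unadjusted p under 0.05, against 6.25% of all genes.

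The genes with the widest split were small subunits. Uqcr10 averaged 63.0 FPKM in the day 4 set and 19.5 FPKM in the day 6 set, a ratio of 3.23, and Uqcrq 10.6 and 3.30 FPKM, a ratio of 3.21. Uqcrb was 2.60 times higher in the day 4 set, Ndufb4 2.53 times, Ndufc1 2.49 times, Cox6a1 2.48 times, Cox6b1 2.42 times and Ndufs6 2.19 times. Ndufa7 went the other way, at 29.7 FPKM in the day 4 set and 114 FPKM in the day 6 set, a ratio of 0.262. In the controls alone its log2 difference, day 4 set minus day 6 set, was -2.08, a value that rests on 1 library against 2. All of these genes were picked by their values, which makes the ratios a description. Of the promoters printed above, those of Ndufa7 and Uqcr10 belong to genes at the opposite ends of the split; a motif was found in 11 of 20 matched promoters of the genes higher in the day 4 set, in 1 of 3 of those lower and in 21 of 41 of those whose sets overlapped.

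Transcript length differed along with the split. The 24 genes higher in the day 4 set had a median length of 614 bases, the other tested subunits 919.5 bases, and all tested genes 2790 bases (1 principal transcript per gene, GENCODE M21). Among subunits with transcripts under 700 bases, 15 of 35 (42.9%) were higher in the day 4 set and 1 was lower. At 700 bases or more but under 1000 bases 6 of 17 were higher and 2 lower, from there to under 2000 bases 2 of 21 (9.52%) were higher and 1 lower, and at 2000 bases or more 1 of 5 was higher. Across 78 subunits Spearman's rho between length and the log2 difference was -0.28, a description across genes that share the same libraries. Other genes with transcripts under 700 bases were also apart by set more often than longer ones, but in both directions: 16.9% of 255 were higher in the day 4 set and 21.6% lower, against 2.18% and 9.92% of the 7850 genes of 2000 bases or more. The part of length, library preparation or cell makeup in the split was not tested.

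**Figure D4:**
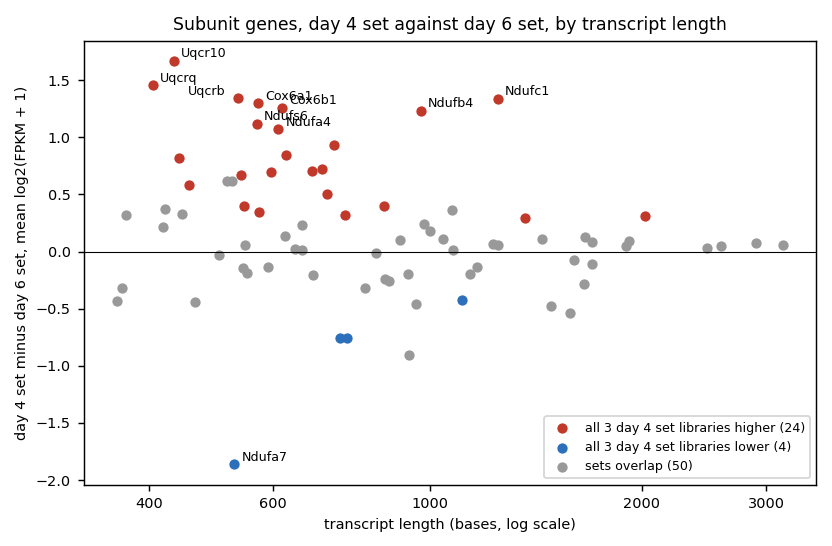
Difference in mean log2(FPKM + 1), day 4 set minus day 6 set, for 78 tested subunit genes against transcript length in bases (log scale); red points are genes with all 3 day 4 set libraries above all 4 day 6 set libraries (24), blue points the reverse (4) and grey points overlap. Most red points lie left of 1000 bases, and Ndufa7 is the lowest point.

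Lists of related genes gave few calls. None of the 44 tested assembly factors of the chain, 16 citric acid cycle genes, 15 glycolysis genes, 15 HIF targets, 10 regulators of mitochondrial biogenesis, 47 proteins of the large mitochondrial ribosomal subunit and 9 electron carriers and related proteins passed in any of the 4 comparisons (limma). At day 4 their median log2 changes ran from -0.13 for the HIF targets to 0.16 for the citric acid cycle genes, against -0.06 over all genes; within the set that of the HIF targets turned to 0.11, that of the assembly factors turned to -0.02 (0.01 against all controls), and that of the citric acid cycle genes was 0.22. At day 4 the mitochondrial ribosomal proteins had a median of 0.15, beside 0.14 for the subunits. At day 6 the list medians ran from -0.08 for the mitochondrial ribosomal proteins to 0.15 for the citric acid cycle genes, against -0.01 over all genes. Of the citric acid cycle genes, 12 of 16 had a positive change on each day.

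Single genes of these lists with the smallest p at day 4 were as follows. Cox16, an assembly factor of complex IV, had 17.3 and 11.3 FPKM in day 4 knockout cells, 15.6 and 18.7 FPKM in day 6 knockout cells, and 20.7, 28.9 and 33.1 FPKM in controls (log2 change -0.90 ± 0.25, adjusted p 0.129). Slc2a1, the glucose transporter GLUT1, stands in both the glycolysis and the HIF lists and had 21.1 and 17.1 FPKM at day 4, 15.1 and 13.0 FPKM at day 6, and 7.85, 11.3 and 6.33 FPKM in controls (1.11 ± 0.24, adjusted p 0.0773). All 4 knockout libraries lay above the controls for Slc2a1. P4ha1, a collagen prolyl hydroxylase and HIF target, had 27.2 and 28.9 FPKM at day 4, 40.7 and 42.1 FPKM at day 6, and 51.5, 60.3 and 46.3 FPKM in controls (-0.88 ± 0.16, adjusted p 0.0532). Etfa, which feeds electrons from fatty acid oxidation into the chain, had 83.3 and 88.1 FPKM at day 4, 117 and 133 FPKM at day 6, and 129, 166 and 168 FPKM in controls (-0.83 ± 0.18, adjusted p 0.0874). Dlst of the citric acid cycle had a log2 change of 0.41 ± 0.17 (adjusted p 0.264) and Mrpl53 of the mitochondrial ribosome -0.47 ± 0.15 (adjusted p 0.173). The regulators summed to 59.7 and 73.4 FPKM in day 4 knockout cells, 65.6 and 74.3 FPKM in day 6 knockout cells, and 66.3, 69.3 and 72.4 FPKM in controls, with overlap of the groups. None of them had an unadjusted p under 0.05 at either day; Tfb1m, a mitochondrial rRNA methyltransferase, came nearest at day 4 with -0.42 ± 0.22 (adjusted p 0.357).

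These lists were also counted by set. None of the 16 citric acid cycle genes and none of the 10 regulators were apart by set, against 13.4% of all tested genes. Apart were 5 of 44 assembly factors (11.4%), 2 of 15 glycolysis genes (13.3%) and 1 of 15 HIF targets (6.67%). Of the 9 electron carriers and related proteins 2 were apart (22.2%), 1 higher and 1 lower in the day 4 set. In the large mitochondrial ribosomal subunit 16 of 47 proteins (34%) were apart, 9 higher (19.1%) and 7 lower (14.9%) in the day 4 set, against 3.78% and 9.65% of all genes. Gapdh, 1 of the glycolysis genes apart, had 215 and 277 FPKM in day 4 knockout cells, 66.5 and 77.2 FPKM in day 6 knockout cells, and 193, 91.4 and 77.3 FPKM in controls. These shares were set side by side and their difference was not tested.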

How the data were processed

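Poly-A RNA of sorted cells was sequenced in 7 libraries: 2 day 4 knockouts, 2 day 6 knockouts and 3 controls. The authors deposited 1 table of FPKM values with a column per library; the submitters' processing notes list kallisto 0.46.1, DESeq2 1.40.1 and mm9 with no role or order, so the step that gave FPKM is not given in the sources used here. Of 25493 entries, 293 symbols were repeated and the one of highest mean stayed in; no subunit gene was repeated. Controls are named by set, since their columns carry no link to the numbered titles. Placing the second day 6 knockout library in the day 6 set is an assumption. No counts were recovered, so depth is unknown; rough relative depths from FPKM under 0.2 were 0.747 and 0.824 for the day 4 knockouts against their set's control, and 1.60 for both day 6 knockouts and 0.883 for the second control against the first day 6 set control.

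Testing took the genes that reached 1 FPKM in 2 or more of the 7 libraries, as log2(FPKM + 1), pseudocount 1, which understates changes of low genes. A model with a mean for each of the groups was fitted to all libraries with limma 3.58.1 (R 4.3.3; 4 residual and 3.78 prior degrees of freedom, trended prior), two-sided, with Benjamini-Hochberg adjustment over all tested genes and a threshold of 0.05; the 4 contrasts were adjusted separately, and SE come from this fit. The script was tested on simulated data. Within-set values add the set as a term. Alternatives were another pseudocount, no filter, 2 scalings, the set term, no trend and each library left out. Near-identical genes (at least 95% identity over at least 100 bases and at least 50% of the transcript, blastn 2.17.0) and antisense exonic overlap were read from GENCODE M21: 13 subunit genes had a near-identical gene, 21 an antisense overlap and 54 neither.

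Named genes were those past the threshold, the highest and the most changed of each complex on each day, the isoform pairs, the 3 smallest p values per contrast and all of complex II; of other lists, the gene with the smallest p at day 4. Ndufa4 and Ndufa4l2 were counted with complex IV. Of the genes matched by name, 1 is not reported here. Members, lists and rules were chosen with earlier results of these data known.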

Additional observations from a re-analysis of the deposited data

Results flagged for a closer look

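Uqcrb stood out because both day 4 knockout libraries (57.5 and 60.1 FPKM) lay above all 3 controls and both day 6 knockout libraries (18.8 and 20.9 FPKM) below them. The log2 difference, day 6 against day 4 knockout, was -1.52 ± 0.36 with a limma adjusted p of 0.271, so it did not pass. The controls of the 2 sets differed in the same direction, 51.3 FPKM in the day 4 set against 22.8 and 24.2 FPKM in the day 6 set, and the difference with this taken off was -0.43. The annotation holds 3 pseudogenes nearly identical to the Uqcrb transcript. Their part, and that of the set, was not tested.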

How the results depend on the processing

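At day 4, 0 subunits were called under every setting run except 1: leaving out 1 library at a time gave between 0 and 10 calls, 10 without the day 4 set control (Atp5k, Cox6a1, Cox6b1, Ndufa4, Ndufb4, Ndufs6, Uqcr10, Uqcrb and Uqcrq higher, Ndufa7 lower) and 0 without any 1 of the other 6 libraries; the cause was not tested. Among the settings with 0 was the fit read over the 50 tested subunits with no near-identical copy or antisense overlap, chosen after seeing the data. With both days averaged there were between 0 and 2 calls with a library left out (Atp5k and Ndufa7 without the day 4 set control). For day 6 against day 4 the range was 0 to 2 (Ndufa7 and Uqcrb without that control), and for day 6 against wildtype every setting gave 0. Over every setting run the median change of the subunits lay between 0.02 and 0.23 at day 4, between -0.14 and -0.04 at day 6 and between -0.23 and -0.12 for day 6 against day 4; with both days averaged it lay between -0.011 and 0.10, below 0 without day 4 knockout replicate 2 (-0.011) and without the first day 6 set control (-0.0012). The SD of the medians of the 3 control libraries over the subunits was 0.17, which holds the set difference too. It is taken over library medians of log2(FPKM + 1). The 4 medians as reported are taken over changes of single genes, so the measures differ. Library medians were 5.50 and 5.67 in day 4 knockout cells and 5.05 and 5.27 in day 6 knockout cells. Those of the controls were 5.46, 5.32 and 5.13. Of 263 alternative values of the named genes, 262 kept their direction. This count overstates how far direction was tried, since part of the 263 values could not differ. Dropping the filter or the trend, adding the replicate block or leaving out a library outside the contrast does not alter the log2 change. The genes were also picked by small p values or large changes in the same contrasts. Sdhd at day 4 reversed to -0.040 without day 4 knockout replicate 2 (range -0.040 to 0.33).

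Same-numbered knockout libraries of the 2 days did not deviate together (correlation -0.03 over 11735 genes), and a replicate block on the knockout libraries left 0 subunits called for day 6 against day 4; the comparisons with wildtype could not be paired because the columns of the controls carry no link to the numbered titles.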
